A study of Mus musculus with 54 samples.

Results

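The 10 genes described here are Nfe2l2, which encodes the transcription factor Nrf2, its inhibitor Keap1, and the antioxidant genes Nqo1, Gclc, Gclm, Txnrd1, Srxn1, Slc7a11, Prdx1 and Sod2. They were picked by symbol, with earlier results of these data known, from the 39179 gene identifiers counted, of which 37693 carry a symbol in the GENCODE M21 annotation. All 10 were found once and all 10 passed the filter on low counts in both experiments. The study compared polarized mouse macrophages and asked whether knocking down transcription factors turns M2-like cells towards an M1-like state.

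Every sample came from thioglycolate-elicited peritoneal exudate cells of C57BL/6 mice aged 8 to 20 weeks, with no genetic change, of which the adherent cells were cultured. In the polarization experiment, cells of 3 mice stayed untreated (M0), received 100 ng/ml LPS with 50 ng/ml IFN-γ (M1-like) or received 10 ng/ml IL-4 (M2-like) for 24 h. Each of these 9 samples was sequenced as 2 technical replicates, whose counts were summed. The reprogramming experiment had 12 conditions with 3 replicates each: M0, M1-like and M2-like cells without transfection, the same 3 states given transfection reagent only (mock), and M2-like cells transfected with a negative siRNA pool, with a pool against E2f1, Myc, Pparg or Stat6, or with the 4 pools combined (iM1). Transfection followed 24 h of polarization, the culture then went on without IL-4, and transfected cells were sequenced 48 h later; the harvest time of the untransfected cells of this experiment is not given separately. The methods speak of 3 biological replicates of M0, M1-like, M2-like and iM1 cells where RNA extraction is described, but not of separate animals for this experiment. Its p-values thus measure the spread between these samples, whatever part of it lies between cultures or animals.

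Nrf2 is held at a low level by Keap1, an adaptor that hands it to a ubiquitin ligase. Oxidants and electrophiles modify cysteines of Keap1, Nrf2 then accumulates, pairs with small Maf proteins and binds antioxidant response elements in the promoters of genes for glutathione synthesis, thioredoxin recycling and quinone reduction. The control acts largely on the protein, so the transcript of Nfe2l2 is no direct reading of Nrf2 activity. Sod2, the mitochondrial superoxide dismutase, is best known as a target of NF-kB, and inflammatory macrophages make both oxidants and electrophilic metabolites.

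The upstream sequence of the genes was searched for the letters TGACNNNGC, the core of the antioxidant response element, on both strands in the 250 bases before each RefSeq start (GRCm38.p6). Of the 9 genes with a promoter entry (Gclc has none), 4 held it, against 11.5% of the 27025 genes and 10.2% of the 32851 promoters in the table. The stretches around these matches are shown because they are the letters through which Nrf2 and the Maf proteins are known to act. The match is in capitals, each sequence is written along the strand of its gene, and a match on the opposite strand reads GCNNNGTCA.
Nfe2l2: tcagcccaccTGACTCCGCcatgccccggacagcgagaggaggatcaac
Gclm: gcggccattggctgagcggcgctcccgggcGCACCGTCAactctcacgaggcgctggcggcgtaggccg
Prdx1: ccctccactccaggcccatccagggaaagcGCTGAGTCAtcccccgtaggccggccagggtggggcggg
Txnrd1: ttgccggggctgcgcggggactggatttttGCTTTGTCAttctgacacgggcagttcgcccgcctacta

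The Nfe2l2 stretch lies at chr2:75704865-75704913 on the minus strand, with its match from position -240 of the start. The Gclm stretch is chr3:122245393-122245461, the Prdx1 stretch chr4:116685436-116685504 and the Txnrd1 stretch chr10:82859084-82859152, all on the plus strand, with matches from positions -134, -133 and -92. The RefSeq start used for Txnrd1 lies inside the GENCODE gene, not at its outer end. The Prdx1 match also contains the AP-1 letters TGACTCA on the opposite strand, so the letters are shared between both motifs. AP-1 letters, a search added after the other results were known, stood in 2 of the 9 genes (Srxn1 and Prdx1) and in 5.16% of all genes. The E-box CACGTG that Myc recognizes, the palindromic Stat6 motif and the NF-kB motif were in 0 of the 9 windows, against 6.86%, 6.76% and 0.414% of all genes. A match is a run of letters and no measure of binding, and elements outside these windows were not searched.

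Positions are those of the GENCODE M21 annotation on GRCm38. Nfe2l2 is at chr2:75675513-75704641 (minus strand), Keap1 at chr9:21229730-21239361 (minus), Nqo1 at chr8:107388225-107403206 (minus) and Gclc at chr9:77754535-77794485 (plus). Gclm is at chr3:122245557-122270732 (plus), Txnrd1 at chr10:82833951-82897712 (plus), Srxn1 at chr2:152105516-152111376 (plus) and Slc7a11 at chr3:49892526-50443614 (minus). Prdx1 is at chr4:116685544-116700822 (plus) and Sod2 at chr17:13006846-13040063 (plus). Exons of Gclm overlap those of the opposite-strand transcript Gm17494 by 296 bases and of the pseudogene Gm6061 by 244 bases, and exons of Keap1 overlap the antisense gene Gm16754 by 510 bases. The counting's use of strand and of reads that map to several places is not given in the sources used here, so Gclm, Keap1 and Prdx1, for which RefSeq lists a pseudogene, carry that uncertainty. Gm6061 had no count in any sample, Gm17494 reached 5.54 CPM (read counts scaled to the library size) and Gm16754 3.96 CPM at most.

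Library depth ran from 39577911 to 59443987 counts per sample in the polarization experiment and from 13421854 to 19704195 in the reprogramming experiment. The least covered gene was Nqo1, with 248 to 636 counts in the polarization samples and 10 to 97 in the reprogramming samples. The next lowest, Slc7a11, had at least 141 counts everywhere. All 8 macrophage markers were found, their summed level lay between 6874 and 18864 CPM over all samples, and in the reprogramming experiment it was lowest in M1-like mock (mean 7418 CPM) and highest in untransfected M2-like cells (17817 CPM). Lyz2 made up much of this sum, at 4052 and 12940 CPM in these groups. Among the other markers Cd14 went the other way, at 245 against 95.5 CPM. At 24 h Adgre1, Cd14 and Mertk were higher in M1-like than in M0 cells, while the other macrophage markers were lower. Markers of T cells, B cells, neutrophils and eosinophils or mast cells each summed to at most 47.9 CPM. Those of eosinophils and mast cells were low in M1-like cells in their sum, with group means from 1.25 CPM (M1-like mock) to 39.6 CPM (E2f1 pool) in the reprogramming experiment and of 1.97 CPM in M1-like against 17.6 CPM in M0 cells at 24 h. Siglecf made up nearly all of the high sums, at 38.2 CPM in the E2f1 pool and 16.35 CPM in M0 at 24 h. The next highest group mean of this list was 1.20 CPM, for Kit in M1-like cells at 24 h, above its 0.423 CPM in M0. B cell markers ran from a mean of 1.16 CPM in untransfected M1-like to 19.0 CPM in M0 mock cells. The 6 fibroblast and mesothelial markers, chiefly Col1a1, Col1a2 and Col3a1, also moved with the groups: they summed to 4.46 to 29.95 CPM in the polarization samples and to 17.1 to 391 CPM in the reprogramming samples, with the lowest mean in M1-like mock (26.8 CPM) and the highest in the Stat6 pool (317 CPM). The part of these marker differences in the results was not tested. In RNA of a whole culture, fewer cells of a type and less RNA per cell cannot be told apart.

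At 24 h, LPS with IFN-γ went with higher levels of 9 of the 10 genes and a lower level of Nfe2l2 itself. Levels are given as CPM on edgeR's scaled library sizes, and a gene was called when edgeR's quasi-likelihood test gave a Benjamini-Hochberg adjusted p under 0.05 over all 16110 genes tested. In this comparison 35.4% of those genes were called higher and 37.5% lower, so a call alone is common. The median log2 difference of the 10 genes was 0.99, beside -0.04 over all genes tested.

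Sod2, which turns mitochondrial superoxide into hydrogen peroxide, differed most. Its level was 63.3, 60.4 and 63.3 CPM in the M0 samples of mice 1 to 3, 1518, 1541 and 1695 CPM in the M1-like samples and 68.6, 63.8 and 66.1 CPM in the M2-like samples. All 3 M1-like samples stood far above the other 6. The rise over M0 was 25.4-fold, a log2 difference of 4.67 ± 0.07 (SE, n = 3 mice; edgeR adjusted p = 2.09e-13). Slc7a11, the cystine importer that feeds glutathione synthesis, was at 39.8, 38.0 and 38.9 CPM in M0 and at 612, 458 and 416 CPM in M1-like cells. The M1-like samples again lay above all others, 12.7-fold over M0 (log2 3.67 ± 0.16, adjusted p = 6.31e-10). Prdx1, a peroxiredoxin that reduces peroxides with thioredoxin, went from 1536, 1436 and 1603 CPM in M0 to 8656, 9359 and 9312 CPM in M1-like cells. That is 5.97-fold (log2 2.58 ± 0.10, adjusted p = 1.86e-10), with no overlap of the groups.

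**Figure D1:**
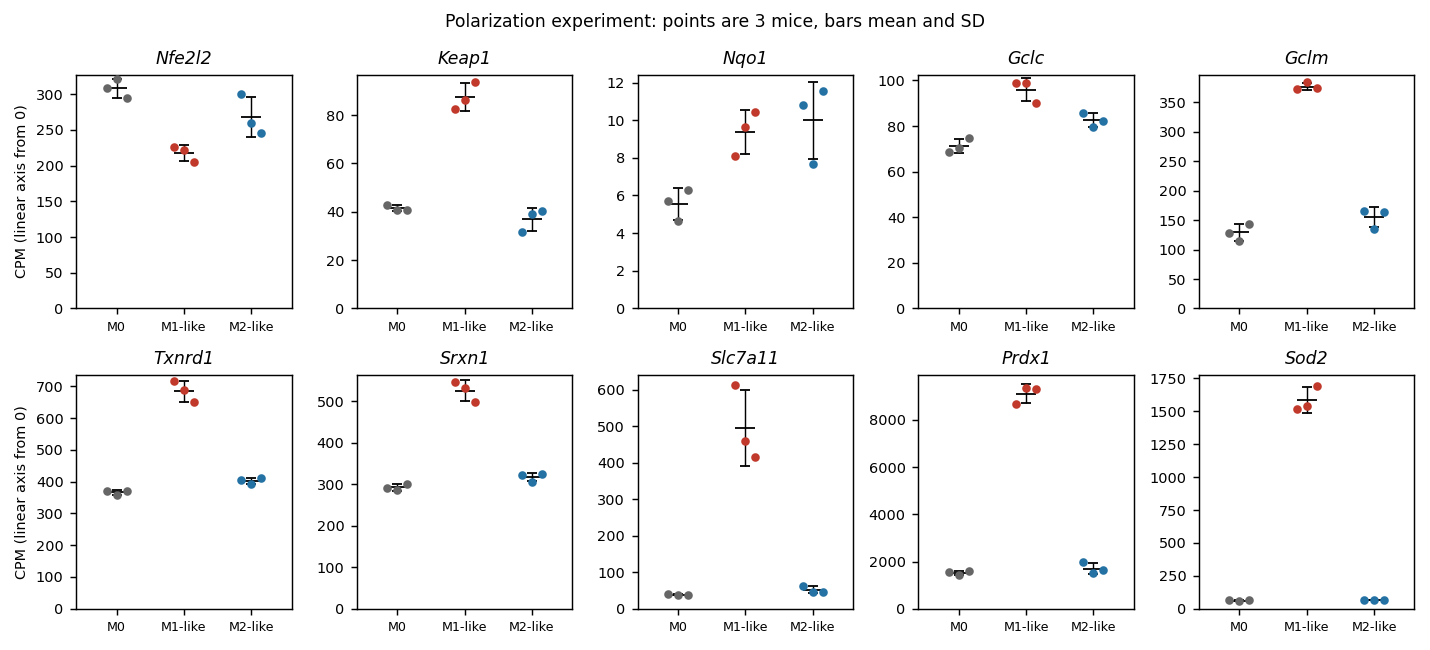
CPM (linear axes from 0) of the 10 genes in M0, M1-like and M2-like macrophages after 24 h, with 1 point per mouse and mean and SD over 3 mice. M1-like samples stand apart for Sod2 (1518 to 1695 CPM), Slc7a11 (416 to 612 CPM) and Prdx1 (8656 to 9359 CPM), while Nfe2l2 is lowest in M1-like cells.

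The enzymes that make glutathione and recycle thioredoxin rose less. Gclm, the modifier subunit of glutamate-cysteine ligase, had 129, 115 and 144 CPM in M0 and 373, 384 and 374 CPM in M1-like cells, a log2 difference of 1.54 ± 0.09 (edgeR adjusted p = 1.92e-08). Gclc, the catalytic subunit of the same ligase, moved from a mean of 71.3 ± 3.15 CPM (SD, n = 3) to 96.0 ± 4.96 CPM, a log2 difference of 0.43. Thus the modifier subunit rose 2.92-fold and the catalytic subunit 1.35-fold in the same samples. Txnrd1, the cytosolic thioredoxin reductase, rose from 367 ± 8.69 to 684 ± 33.6 CPM (log2 0.90) and Srxn1, which repairs overoxidized peroxiredoxins, from 292 ± 8.05 to 525 ± 25.1 CPM (log2 0.85). Nqo1, a quinone reductase and a classical Nrf2 target, was low throughout, at 5.72, 4.62 and 6.27 CPM in M0 and 8.11, 9.63 and 10.4 CPM in M1-like cells. The groups did not overlap and the log2 difference was 0.76 ± 0.16 (adjusted p = 0.00124).

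The regulators moved in opposite directions at 24 h. Nfe2l2 fell from 308, 322 and 295 CPM in M0 to 227, 222 and 205 CPM in M1-like cells (log2 -0.50 ± 0.08, edgeR adjusted p = 0.000106). Keap1 rose from 42.8, 40.7 and 40.7 to 82.4, 86.4 and 93.6 CPM (log2 1.08 ± 0.09, adjusted p = 2.53e-07). Neither gene's groups overlapped. Per kilobase of exon, the M0 level was highest for Prdx1 (501 CPM per kb), followed by Srxn1 (104) and Nfe2l2 (81.2). Sod2 stood at 6.23 CPM per kb in M0 and at 158 CPM per kb in M1-like cells, below only Prdx1 (2993) and Srxn1 (186) there.

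IL-4 gave fewer calls. Against M0, 3 of the 10 were called higher and 0 lower, beside 13.5% and 14.4% of all genes, in a comparison that shares its M0 samples with the one above. Nqo1 rose to 10.8, 7.65 and 11.5 CPM (log2 0.85 ± 0.16, edgeR adjusted p = 0.00263) and lay above all M0 samples. Gclc rose by a log2 of 0.21 (adjusted p = 0.0206) and Slc7a11, at 63.0, 47.2 and 46.7 CPM, by 0.43 (adjusted p = 0.0446). Leaving out M0 of mouse 1 or of mouse 2 ended the calls of both Gclc and Slc7a11, and so left 1 call; for Slc7a11 so did leaving out M0 of mouse 3 or M2-like of mouse 1. Their highest adjusted p over the alternatives were 0.0857 and 0.136. With mouse as a block, 5 genes were called, Nfe2l2 (lower) and Gclm (higher) being added. Sod2 differed from M0 by a log2 of 0.09, with a 95% interval from -0.04 to 0.21.

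Between the stimulated states, 8 genes were higher after LPS with IFN-γ than after IL-4 and 1 (Nfe2l2) was lower, beside 34.6% and 38.1% of all genes. Sod2 differed 23.96-fold (log2 4.58 ± 0.07, edgeR adjusted p = 2.69e-13). Nqo1 was the exception: its M1-like and M2-like samples overlapped, and the log2 difference was -0.09, with a 95% interval from -0.40 to 0.23.

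In the reprogramming experiment the M1-like cells showed another pattern: Sod2 and Slc7a11 were higher than in M0, and 6 of the 10 genes, Nfe2l2 among them, were lower. All genes tested here numbered 14172, of which 29.0% were called higher and 28.7% lower. The median log2 difference of the 10 genes was -0.53, beside 0.01 over all. The harvest time of the untransfected cells here is not given separately, so whether it differs from the 24 h of the first experiment is not known. The experiments differ in read length, single against paired ends and sequencing site, and were normalized apart, so the change of sign between them was not tested. Absolute levels are not comparable either: Prdx1 ranged from 1436 to 9359 CPM in the first experiment and from 194 to 419 CPM in the second.

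**Figure D2:**
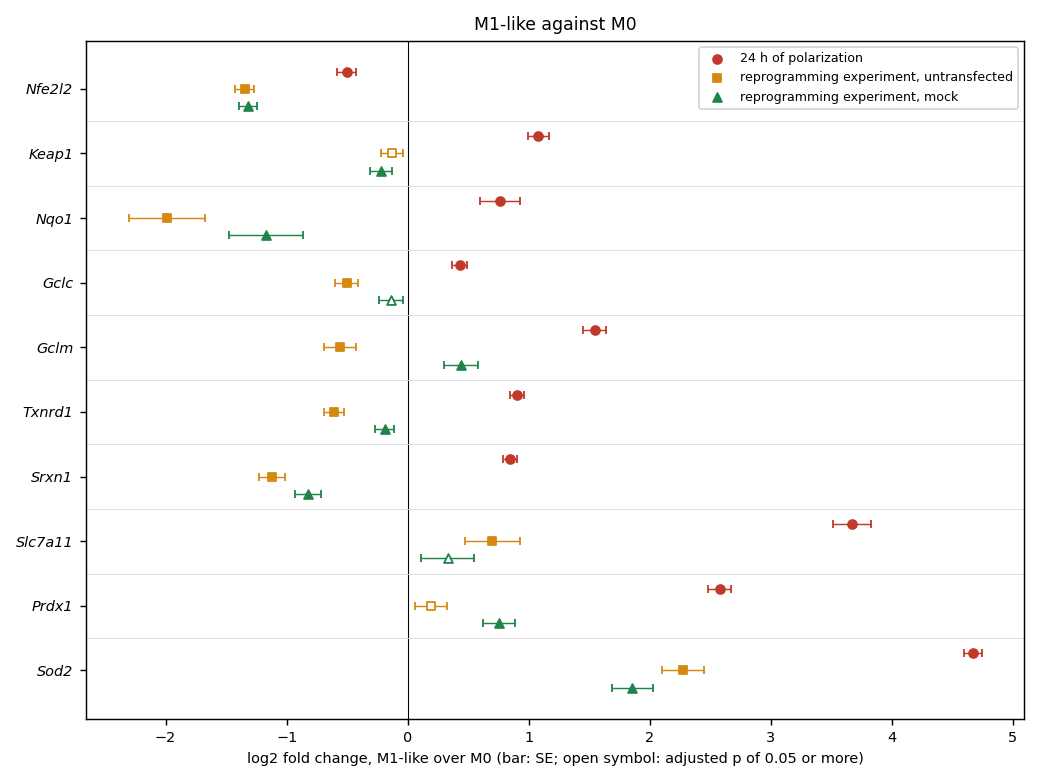
log2 fold change of M1-like over M0 for each gene after 24 h, in untransfected cells of the reprogramming experiment and in mock-transfected cells, with SE as bars and open symbols where the adjusted p was 0.05 or more. Sod2 lies right of 0 in all 3 (4.67, 2.27 and 1.86) and Nfe2l2 left of 0 (-0.50, -1.35 and -1.32), while Nqo1 and Srxn1 lie right of 0 at 24 h and left of it in the other comparisons.

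Nfe2l2 was at 307, 314 and 282 CPM in untransfected M0 and at 131, 116 and 108 CPM in M1-like cells. No samples overlapped, and the level was 2.55-fold lower in M1-like cells (log2 -1.35 ± 0.08, edgeR adjusted p = 4.00e-16). Nqo1 fell from 2.20, 3.29 and 3.14 CPM to 0.733, 0.669 and 0.757 CPM, 3.98-fold (log2 -1.99 ± 0.32, adjusted p = 2.44e-06), and rests on few counts. Srxn1 fell from 187, 180 and 236 CPM to 84.8, 91.5 and 101 CPM (log2 -1.12 ± 0.11, adjusted p = 1.69e-10). Both are enzymes that Nrf2 is known to induce, and in both every M1-like sample lay below every M0 sample. Txnrd1, Gclm and Gclc were lower by log2 values of -0.61, -0.56 and -0.51, also without overlap.

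Sod2 was higher in the M1-like cells of this experiment as well. It was at 69.8, 69.3 and 63.6 CPM in M0 and at 234, 376 and 369 CPM in M1-like cells, 4.83-fold (log2 2.27 ± 0.17, edgeR adjusted p = 7.48e-13). The M1-like replicates spread widely but all lay above M0. Slc7a11 was at 10.3, 16.7 and 13.6 CPM in M0 and at 18.01, 31.12 and 17.29 CPM in M1-like cells (log2 0.70 ± 0.22, adjusted p = 0.00855). This call ended without M0 replicate 1 or without M1-like replicate 2 (adjusted p from 2.13e-07 to 0.165 over the alternatives). Keap1 and Prdx1 were not called, with log2 values of -0.13 and 0.19 and 95% intervals from -0.31 to 0.05 and from -0.07 to 0.45.

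Untransfected M2-like cells had 4 genes lower than the same M0 samples and 0 higher, beside 9.19% and 10.7% of all genes. Gclm was lowest relative to M0, at 23.9, 28.9 and 32.2 CPM against 52.3, 64.3 and 71.5 CPM (log2 -1.15 ± 0.14, edgeR adjusted p = 2.70e-07). Gclc, Srxn1 and Txnrd1 were lower by log2 values of -0.45, -0.38 and -0.28. Without M0 replicate 3, or without M2-like replicate 1, the calls of Srxn1 and Txnrd1 were lost and 2 remained. Against untransfected M2-like cells, M1-like cells had 2 genes higher (Gclm and Sod2) and 4 lower (Nfe2l2, Nqo1, Txnrd1 and Srxn1), beside 31.3% and 30.2% of all genes. Sod2 was 4.60-fold higher there and Nfe2l2 2.88-fold lower.

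Mock-transfected M0 cells differed from untransfected M0 cells, in a comparison where reagent and harvest time cannot be told apart. In M0 mock 4 genes were lower than in untransfected M0 and 0 higher, beside 8.66% and 11.7% of all genes. Gclm dropped from the levels given above to 27.4, 30.7 and 32.3 CPM, 2.08-fold (log2 -1.06 ± 0.14, edgeR adjusted p = 7.15e-07), so that no mock sample reached an untransfected one. Txnrd1, Prdx1 and Gclc were lower by log2 values of -0.48, -0.45 and -0.42. The call of Prdx1 was lost without M0 replicate 2, M0 replicate 3 or M0 mock replicate 2 (highest adjusted p 0.0832).

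Between M1-like mock and untransfected M1-like cells edgeR called 0 of the 10 genes, beside 0.0% of all genes in either direction. By DESeq2 the count for the 10 genes was also 0. An unadjusted p under 0.05 was found for 438 of the 14172 genes tested and for 1 of the 10 (Sod2, at 187, 311 and 244 CPM in mock, log2 -0.40, 95% interval from -0.72 to -0.08). In M2-like cells Keap1 alone was called, higher by a log2 of 0.38 (edgeR adjusted p = 0.0204), with 1.67% of all genes higher and 0.0988% lower. It went from 63.7, 62.3 and 61.0 CPM to 76.5, 74.5 and 91.6 CPM. Leaving out any of the 3 untransfected M2-like replicates, or mock replicate 3, ended the Keap1 call and left 0 genes (highest adjusted p 0.282).

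Whether the difference between M1-like and M0 was another in mock than in untransfected cells was tested directly by an interaction term. It was called for Gclm (log2 0.9999 ± 0.19, edgeR adjusted p = 0.000645) and Txnrd1 (0.42 ± 0.11, adjusted p = 0.0171). Both terms were positive, beside 3.22% of all genes with a called positive term and 5.85% with a called negative one. The Txnrd1 call was lost without M0 replicate 3, M0 mock replicate 3 or M1-like replicate 3 (highest adjusted p over the alternatives 0.0653). The same term for M2-like against M0 was called for Gclm (0.90 ± 0.20, adjusted p = 0.00506), beside 2.41% of all genes higher and 3.25% lower. Both interactions share their M0 and M0 mock samples.

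Between mock-transfected states, M1-like cells had 3 genes higher than M0 (Gclm, Prdx1 and Sod2) and 5 lower (Nfe2l2, Keap1, Nqo1, Txnrd1 and Srxn1), beside 30.3% and 30.0% of all genes. Nfe2l2 was at 287, 255 and 274 CPM in M0 mock and at 110, 104 and 113 CPM in M1-like mock (log2 -1.32 ± 0.08, edgeR adjusted p = 7.77e-16). Sod2 was at 61.4, 58.7 and 85.2 CPM in M0 mock, so each M1-like mock sample was above it (log2 1.86 ± 0.17, adjusted p = 6.97e-11). Gclm, lower in M1-like than in M0 cells without reagent, was higher with it: 39.4, 41.0 and 42.6 CPM against 27.4, 30.7 and 32.3 CPM (log2 0.44 ± 0.14, adjusted p = 0.00689). Prdx1 was higher by 0.75 and Srxn1 and Nqo1 lower, at log2 -0.82 and -1.17. Keap1 and Txnrd1 were borderline at log2 -0.22 and -0.19. The Keap1 call was lost without M0 mock replicate 2 or 3 or M1-like mock replicate 1 or 3, and the Txnrd1 call without M0 mock replicate 1 or 2 or any M1-like mock replicate, with highest adjusted p of 0.255 and 0.144.

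For mock-transfected M2-like against M0 cells edgeR called 0 of 10, and DESeq2 called 0, beside 2.19% of all genes called higher and 1.64% lower by edgeR. An unadjusted p under 0.05 was found for 2 of the 10 (Nfe2l2 and Srxn1) and for 2515 of the 14172 genes tested. In all 10 genes the samples of the groups overlapped, a share that was not counted over all genes. M1-like mock against M2-like mock gave 3 higher (Gclm, Prdx1 and Sod2) and 3 lower (Nfe2l2, Nqo1 and Srxn1), beside 30.9% and 29.8% of all genes, with Sod2 3.84-fold higher and Nfe2l2 2.86-fold lower.

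**Figure D3:**
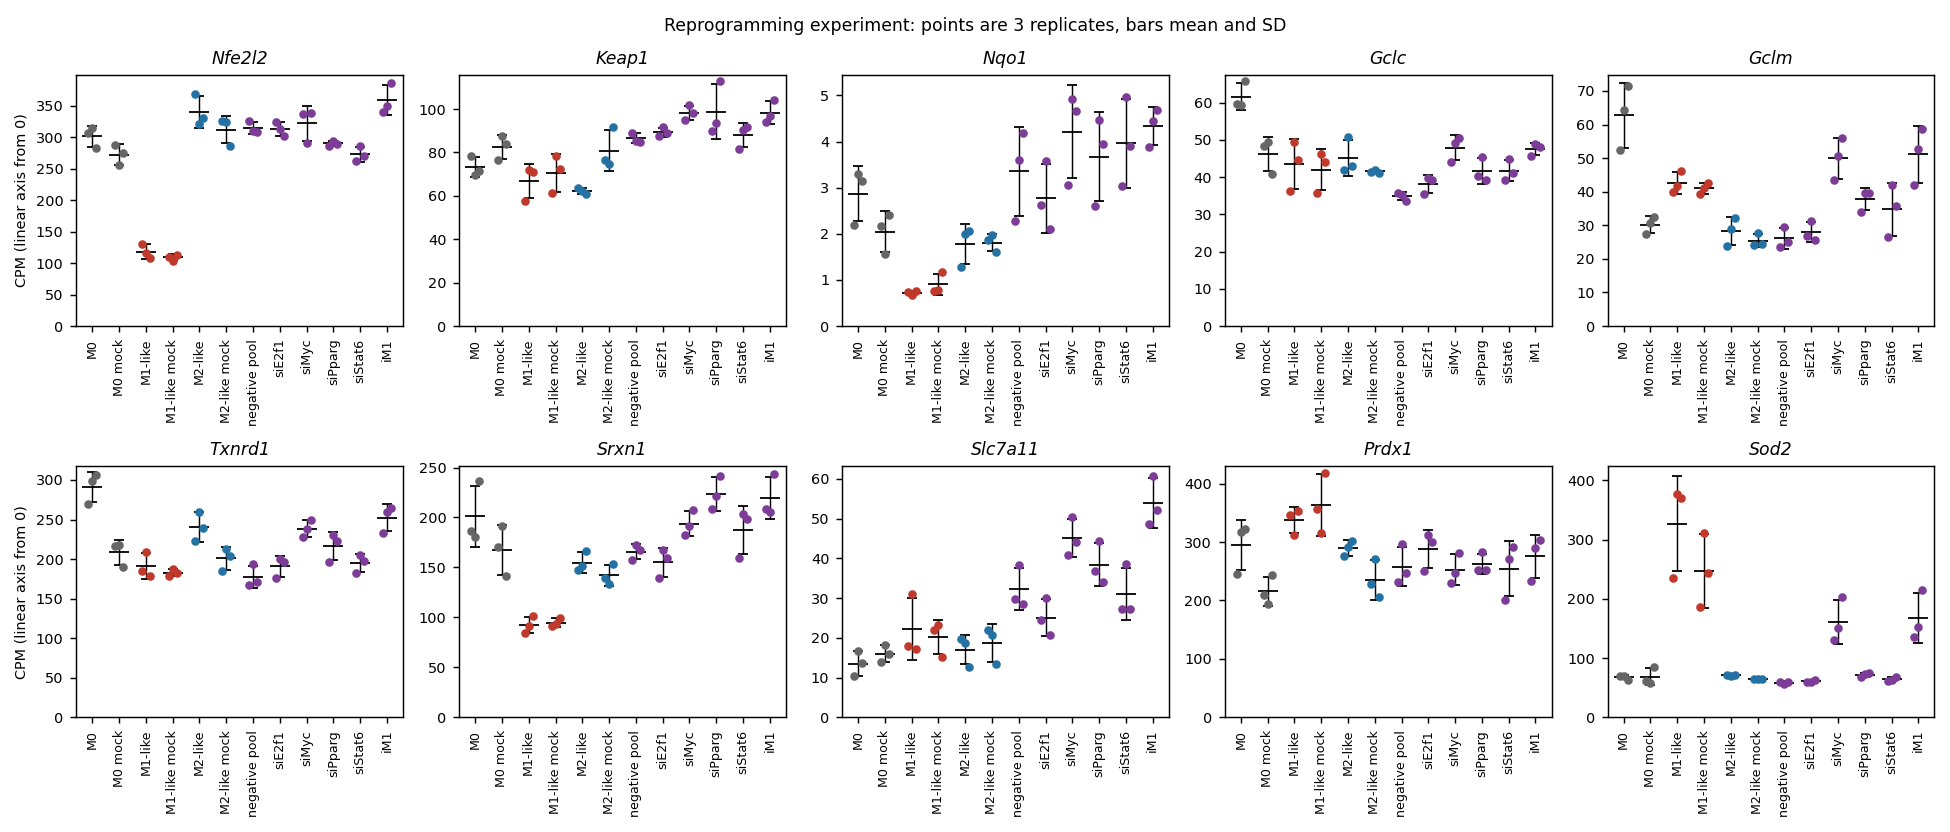
CPM (linear axes from 0) of the 10 genes in the 12 conditions of the reprogramming experiment, with 1 point per replicate and mean and SD over 3. Nfe2l2, Nqo1 and Srxn1 are lowest in both M1-like conditions, and Sod2 is raised in those, in the Myc pool (mean 161 CPM) and in iM1 (168 CPM), against 58.4 to 71.8 CPM in the other conditions.

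The siRNA pools lowered their targets. Relative to the mean of the negative siRNA pool, E2f1 was at 25.2% ± 4.05 (SD, n = 3), Myc at 38.0% ± 8.01, Pparg at 21.9% ± 2.57 and Stat6 at 27.3% ± 5.79 in their own pools. In the combined pool they were at 60.4%, 39.6%, 28.3% and 54.0%. Of these 4 targets, 2 were called lower in each of the E2f1, Myc and Stat6 pools and 1 in the Pparg pool. All genes called lower made up 0.649%, 15.6%, 1.04% and 3.03% in the same order. The E2f1, Myc and Stat6 pools thus did not lower their own target alone. Against mock, the negative pool had 1 of the 4 targets lower. The negative pool itself differed from mock in 2 of the 10 genes, beside 6.67% of all genes higher and 5.03% lower: Nqo1 was higher by a log2 of 0.89 (edgeR adjusted p = 0.0261) and Slc7a11 by 0.78 (adjusted p = 0.0134). Both calls ended without M2-like mock replicate 3 or without negative pool replicate 2, leaving 0, and the Nqo1 call also without mock replicate 1 or negative pool replicate 3, leaving 1. The pools below are therefore set against the negative pool, which all 5 comparisons share as control. The paper names Dharmacon as source of the Myc siRNA and siTools Biotech for the E2f1, Pparg and Stat6 pools. It names no source for the negative pool. For the Myc pool and the combined pool, the source of the siRNA and the loss of Myc thus cannot be told apart.

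The combined knockdown raised 6 of the 10 genes and lowered 0, beside 12.5% and 13.9% of all genes. Sod2 led, with 136, 152 and 216 CPM in iM1 against 60.3, 55.5 and 59.5 CPM in the negative pool, 2.87-fold (log2 1.52 ± 0.17, edgeR adjusted p = 6.52e-08). The groups were well apart. Gclm was at 42.0, 52.6 and 58.6 CPM against 23.5, 29.6 and 25.1 CPM (log2 0.97 ± 0.14, adjusted p = 3.32e-06) and Slc7a11 at 48.6, 60.7 and 52.2 CPM against 29.7, 38.3 and 28.6 CPM (log2 0.75 ± 0.20, adjusted p = 0.00566). No sample of either gene overlapped. Txnrd1, Gclc and Srxn1 rose by log2 values of 0.51, 0.45 and 0.40. Of the others, Nfe2l2 (log2 0.19, edgeR adjusted p = 0.0553) lay close to the threshold. It was called when iM1 replicate 1 was left out. With all samples kept it was called by DESeq2, with the replicate block, with 10 counts in every sample and with the compared groups alone. The median over the 10 genes was 0.42, beside 0.01 over all genes.

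The Myc pool raised 4 genes and lowered 0, beside 13.9% and 15.6% of all genes. Sod2 was at 131, 150 and 202 CPM, 2.76-fold above the negative pool (log2 1.46 ± 0.17, edgeR adjusted p = 1.14e-07). Gclm stood at 43.6, 50.5 and 55.9 CPM (log2 0.94 ± 0.14, adjusted p = 4.95e-06), and Gclc and Txnrd1 rose by 0.45 and 0.43. For each of the 4 every sample was above the negative pool. Slc7a11 (log2 0.49, edgeR adjusted p = 0.0645) and Srxn1 (0.22, adjusted p = 0.111) did not pass. Both passed with the replicate block and with the compared groups alone. Slc7a11 also passed without the filter and when negative pool replicate 2 was left out. Whether the Myc pool and the combined pool differ in these genes was not tested.

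The Pparg pool raised 3 genes and lowered 0, beside 2.71% and 3.03% of all genes. Srxn1 was at 208, 221 and 242 CPM against 158, 172 and 168 CPM in the negative pool (log2 0.43 ± 0.11, edgeR adjusted p = 0.0116). Gclm rose by 0.54 (adjusted p = 0.0177) and Txnrd1 by 0.29 (adjusted p = 0.0302), and the groups overlapped for none of the 3. These calls rested on single libraries: without Pparg pool replicate 3 or negative pool replicate 1 all 3 were lost, and without Pparg pool replicate 2 or negative pool replicate 3 only the Srxn1 call was left, with highest adjusted p of 0.108 (Gclm), 0.155 (Txnrd1) and 0.0952 (Srxn1). Sod2 differed by a log2 of 0.30, with a 95% interval from -0.04 to 0.64.

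The E2f1 and Stat6 pools gave no call among the 10 genes. For E2f1, edgeR and DESeq2 called 0, beside 0.261% of all genes called higher and 0.649% lower by edgeR, and an unadjusted p under 0.05 was found for 0 of the 10 and for 1539 of the 14172 genes tested. The log2 differences ran from -0.36 (Slc7a11) to 0.16 (Prdx1), and all groups overlapped, again without a share over all genes to set beside it. For Stat6, edgeR and DESeq2 also called 0, beside 0.466% of all genes called higher and 1.04% lower by edgeR. An unadjusted p under 0.05 was found for 3 of the 10 (Nfe2l2, Gclc and Gclm) and for 1713 of the 14172 genes tested. Gclm was at 26.4, 42.0 and 35.8 CPM (log2 0.42, 95% interval from 0.14 to 0.69). It passed when the lowest replicate of the Stat6 pool, replicate 1, was left out, which gave 1 call. With all samples kept it passed without the filter and with the replicate block.

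**Figure D4:**
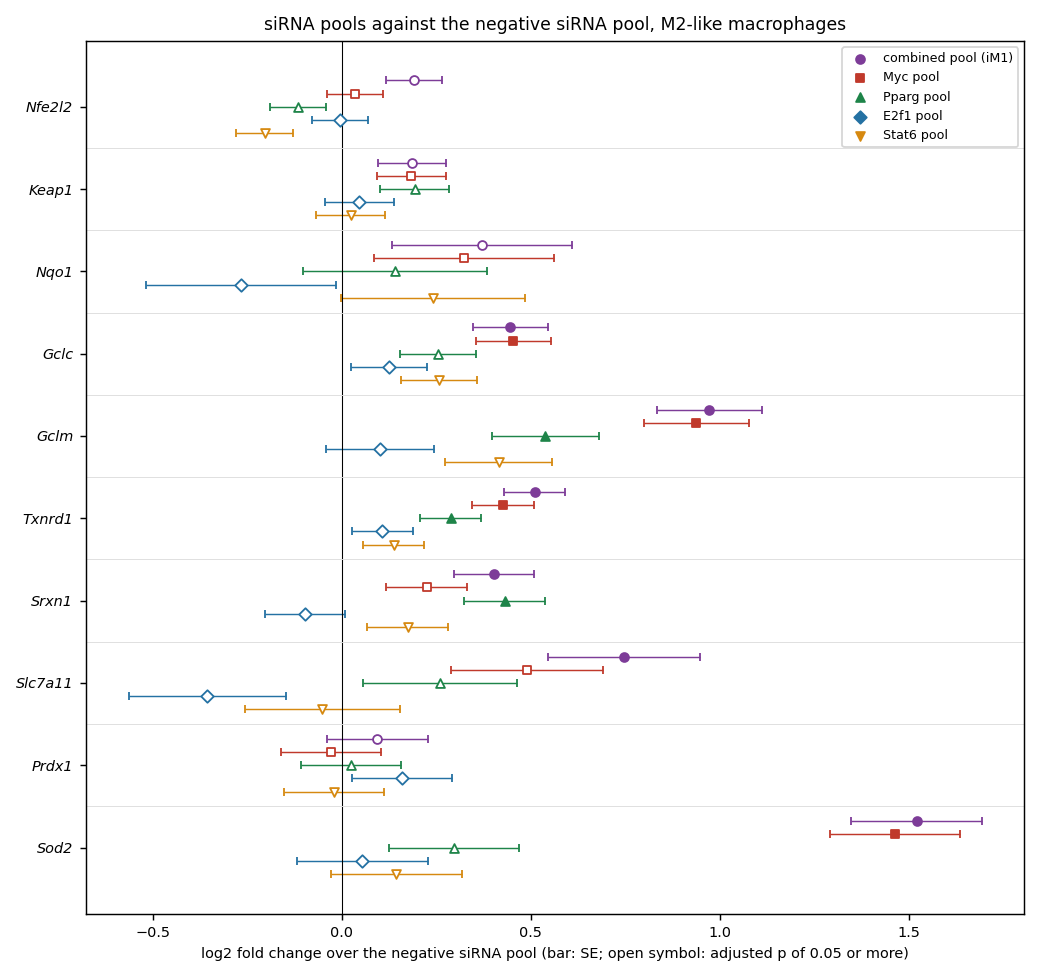
log2 fold change of each siRNA pool over the negative siRNA pool in M2-like cells, with SE as bars and open symbols where the adjusted p was 0.05 or more. Sod2 (1.52 and 1.46) and Gclm (0.97 and 0.94) lie farthest right in the combined and Myc pools, and the E2f1 and Stat6 pools have open symbols only.

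Set against mock instead of the negative pool, iM1 cells had 8 genes higher and 0 lower, beside 19.0% and 18.1% of all genes, Gclc and Prdx1 being the ones not called. Slc7a11 was higher by a log2 of 1.52, Sod2 by 1.38 and Nqo1 by 1.26. This comparison also holds the difference between siRNA and reagent alone. The negative pool was itself above mock for Slc7a11 (log2 0.78) and Nqo1 (0.89), and against the negative pool Nqo1 was not called in iM1 (log2 0.37). The calls of Nfe2l2 and Keap1, at log2 0.20 and 0.28, were lost without iM1 replicate 3, which left 6. Each was also lost without single mock replicates, replicate 3 for Nfe2l2 and replicate 1 or 2 for Keap1, with highest adjusted p by edgeR of 0.183 and 0.0861.

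The iM1 cells did not carry the levels of M1-like mock cells. They had 7 genes higher and 2 lower, beside 27.2% and 25.6% of all genes. Here too, cells given siRNA are set against cells given reagent alone. Nfe2l2, at 340, 350 and 385 CPM, was 3.29-fold above M1-like mock (log2 1.72 ± 0.08, edgeR adjusted p = 2.43e-18). Nqo1 (log2 2.27), Slc7a11 (1.42) and Srxn1 (1.21) were also higher, with no overlap of samples, and Keap1, Txnrd1 and Gclm by 0.48, 0.47 and 0.32. Sod2 was lower by a log2 of -0.56 (adjusted p = 0.00484), but its groups overlapped and the call was lost without M1-like mock replicate 2 (adjusted p = 0.0812). Prdx1 was lower by -0.40, a call lost without M1-like mock replicate 3 or iM1 replicate 1 (highest adjusted p 0.10005). That of Gclm was lost without any of the 3 M1-like mock replicates or iM1 replicate 2 or 3 (highest adjusted p 0.246).

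Over the 12 conditions, the order of the means differed by gene. Nfe2l2 ran from 109 CPM in M1-like mock to 358 CPM in iM1, a 3.29-fold range, in which the M1-like conditions stood alone and the 10 others lay between 272 and 358 CPM, each close to its neighbours relative to SDs of 4.15 to 27.3 CPM. Nqo1 spanned 6.03-fold (0.720 CPM in M1-like to 4.34 CPM in iM1) and Sod2 5.59-fold (58.4 CPM in the negative pool to 327 CPM in M1-like). Slc7a11 spanned 3.98-fold, from 13.5 CPM in M0 to 53.9 CPM in iM1. Gclm and Srxn1 spanned 2.46-fold and 2.42-fold, with Gclm highest in untransfected M0 and Srxn1 in the Pparg pool. Keap1, Gclc, Txnrd1 and Prdx1 stayed within 1.76-fold.

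Correlations between the genes over the 12 condition means, which share libraries within each condition, are given as a description. Pearson's r was 0.941 for Nqo1 and Srxn1, 0.892 for Gclc and Txnrd1 and 0.855 for Nfe2l2 and Srxn1, and it was -0.727 for Nfe2l2 and Sod2. How far these values rest on the M1-like conditions, where Nfe2l2 stood apart at 109 and 118 CPM, was not worked out. In iM1 and the Myc pool Sod2 was raised (168 and 161 CPM) while Nfe2l2 was at 358 and 322 CPM. The genes most like Nfe2l2 in mean log2 CPM were Ptpre (r = 0.988), B430306N03Rik and Cd22, of 2482 candidates. For Sod2 they were Smim26 (r = 0.989), Birc3 (0.976), an inhibitor of apoptosis, and Pex26. Nqo1 was most like Nlrc3 (0.952), Srxn1 like N6amt1 (0.957), Slc7a11 like Atg13 (0.976), Keap1 like Dck (0.976), Gclc like Fbxo31 (0.913), Prdx1 like Zfp160 (0.910), Txnrd1 like Pdgfb (0.891) and Gclm like Abcb6 (0.874).

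Other genes of the pathway give the setting. Of 23 further Nrf2 targets 22 were tested. At 24 h, 11 were higher and 11 lower in M1-like than in M0 cells (all genes 35.4% and 37.5%), with a median log2 of 0.06 beside -0.04 over all genes. Hmox1, the haem oxygenase, rose from 478 ± 36.8 to 5608 ± 683 CPM (log2 3.55, edgeR adjusted p = 1.48e-10) and Abcc1, which exports glutathione conjugates, rose by 1.55. Ephx1, an epoxide hydrolase, fell by a log2 of -2.97 and Gsta3, a glutathione transferase, by -1.80. In the reprogramming experiment 2 were higher and 16 lower in untransfected M1-like than in M0 cells (all genes 29.0% and 28.7%), with a median of -0.76 beside 0.01 over all genes. Among mock cells 2 were higher and 14 lower (all genes 30.3% and 30.0%), with a median of -0.74 beside 0.02. Among mock cells Mgst1 and Fth1 were the 2 higher, at log2 1.05 and 0.30, and Gstp1 (-1.91) and Cbr3 (-1.57) fell most. Against M1-like mock, iM1 had 15 higher and 4 lower (all genes 27.2% and 25.6%), with a median of 0.65 beside -0.01, led by Gsta3 and Cbr3. Against the negative pool the counts were 5 and 5 for iM1 (all genes 12.5% and 13.9%) and 6 and 5 for Myc (all genes 13.9% and 15.6%), with Ftl1 lowest in both (log2 -1.30 and -1.14).

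Of 13 regulators and partners of Nrf2, 11 were higher and 2 lower in M1-like cells at 24 h, beside 35.4% and 37.5% of all genes. Maff, a small Maf protein, rose from 4.08 to 63.5 CPM (log2 3.96, edgeR adjusted p = 1.17e-11) and Sqstm1, the autophagy receptor that binds Keap1, by 1.78. Bach2 and Bach1, repressors that compete for the same elements, fell by log2 values of -0.88 and -0.31. In mock cells 5 were higher and 3 lower, Maff by 0.68 and Bach1 by -0.70, beside 30.3% and 30.0% of all genes. The Myc pool gave 4 and 2, beside 13.9% and 15.6% of all genes, and so did the combined pool, beside 12.5% and 13.9%, with Maff higher by 0.89 and 0.68 and Bach1 lower by -0.35 and -0.29.

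Of 18 genes of glutathione synthesis and use, 16 were tested. For the lists in the next sentences, all genes were called higher and lower in 35.4% and 37.5% of cases at 24 h, in 30.3% and 30.0% among mock cells, in 13.9% and 15.6% with the Myc pool and in 12.5% and 13.9% with the combined pool. At 24 h 6 were higher and 7 lower in M1-like cells, shares near those of all genes, with Ggct, which cleaves gamma-glutamyl peptides, up by 4.34 and Gpx1, a glutathione peroxidase, at -2.04. Among mock cells 5 were higher, Ggct again first (2.39), and 4 lower, Gpx3 first (-3.80). Of 10 thioredoxin and peroxiredoxin genes, 4 were higher and 4 lower at 24 h, Prdx5 (3.94) and Prdx6 (2.17) rising most. In mock cells 5 were higher and 4 lower, with Prdx5 at 0.91 and Txn1 at -0.94. Of the 4 genes Sod1, Sod3, Ccs and Cat, listed under superoxide dismutase and catalase, the Myc pool gave 0 higher and 1 lower (Sod1, -0.32) and the combined pool 0 and 0. In M1-like against M0 cells, 2 were higher and 2 lower at 24 h. Among mock cells 0 were higher and 3 lower, with a median log2 of -0.36 beside 0.02 over all genes. Untransfected cells of that experiment had 1 higher and 3 lower (all genes 29.0% and 28.7%), with a median of -0.50 beside 0.01. At 24 h Cat, the catalase, fell by a log2 of -0.83 and Sod1 rose by 0.22 by edgeR (adjusted p = 0.00890), while Sod3 rose by 5.002 from a level of 0.0438 CPM.

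Genes of the NF-kB response, the other pathway known to control Sod2, were counted in the same comparisons. Of 10 tested, 10 were higher at 24 h in M1-like cells (all genes 35.4%), with a median log2 of 2.999 beside -0.04 over all genes. In untransfected M1-like cells of the reprogramming experiment 7 were higher and 1 lower (all genes 29.0% and 28.7%), with a median of 0.69 beside 0.01. Among mock cells 3 were higher and 1 lower (all genes 30.3% and 30.0%), with a median of -0.03 beside 0.02. The Myc pool and the combined pool each had 9 higher and 0 lower, where 13.9% and 12.5% of all genes were higher, with medians of 0.81 and 0.79. Icam1, an adhesion molecule, rose by log2 values of 2.15 and 2.29 in these pools, and Nfkbia, the inhibitor of NF-kB, by 1.72 and 1.69 (edgeR adjusted p = 2.15e-07 and 3.18e-07). The Pparg pool had 1 higher (all genes 2.71%), and by edgeR the E2f1 and Stat6 pools had 0 called.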

How the data were processed

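Peritoneal macrophages were profiled by RNA sequencing in 54 libraries: 18 single-end (50 bases) libraries of the polarization experiment and 36 paired-end (150 bases) libraries of the reprogramming experiment. The deposited values were raw read counts per gene, which the authors made with Trimmomatic, TopHat (TopHat2 in the submitters' notes) and featureCounts on GRCm38/mm10. Versions, annotation release, strand setting and the handling of multi-mapping reads are not given in the sources used here.

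Technical replicates were summed. Each experiment was fitted on its own in edgeR 4.0.16 (R 4.3.3) with filterByExpr (minimum count 10), TMM scaling and 1 coefficient per condition, followed by glmQLFTest, two-sided, with Benjamini-Hochberg adjustment over all genes tested, and calls at 0.05. SE was derived from the F statistic, and 95% intervals are ± 1.96 SE. The script was tested on simulated data. Alternatives were DESeq2 1.42.0, RLE scaling, no filter, 10 counts in every sample, a replicate block, the compared groups alone, a log2 minimum of 1, the 18 libraries taken separately and leaving out each replicate. In the polarization experiment equal numbers mark the same mouse, per the labels. Deviations from the group means correlated between samples of one mouse with a median r of 0.25 over 9 pairs (-0.0559 to 0.425), against -0.135 between mice.

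The text names the 10 genes in each comparison, the 2 largest rises and falls among called genes of further lists, the 3 genes most like each, and the siRNA targets; for brevity some of these are left out. The 10 genes and the lists were chosen with earlier results of these data known. No value adjusted over a list alone and no set test was made. Overlap of samples between groups is given as a description of single genes and was not counted over all genes tested.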

Additional observations from a re-analysis of the deposited data

Results flagged for a closer look

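For 2 genes the difference between polarization states was not the same with and without transfection reagent, as tested by an interaction term in edgeR. For Gclm the log2 difference between M1-like and M0 went from -0.56 in untransfected to 0.44 in mock cells (interaction term 0.9999). That between M2-like and M0 went from -1.15 to -0.25 (term 0.90). For Txnrd1 the difference between M1-like and M0 went from -0.61 to -0.19 (term 0.42). All 3 terms share the M0 samples, in which both genes were higher without reagent. Gclm had a mean of 62.7 CPM in M0 against 30.2 CPM in M0 mock, and Txnrd1 292 against 209 CPM. The harvest time of untransfected cells is not given separately, so reagent and time cannot be told apart. No group had more than 3 samples, so single samples were not screened for standing apart.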

How the results depend on the processing

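Counts of called genes among the 10 are given per comparison. The share of all genes called under each alternative was not worked out. These counts thus show how far the calls depend on the processing, and not how the 10 genes stand beside all genes. With a log2 difference of at least 1 also required, at 24 h 5 were left for M1-like against M0, 0 for M2-like against M0 and 5 for M1-like against M2-like. In untransfected cells of the reprogramming experiment 4, 1 and 3 were left in the same order, and for mock cells 3 for M1-like against M0 and 3 against M2-like. The mock effect kept 1 in M0 and 0 in M2-like cells, the negative pool against mock 0, the combined pool 1 against the negative pool, 4 against mock and 4 against M1-like mock, the Myc pool 1, the Pparg pool 0 and both interactions 0. For M2-like against M0 at 24 h, DESeq2 gave 5 and the 18 libraries taken separately, which treats technical replicates as independent, 9. Without the filter the mock effect in M1-like cells gave 1, the Stat6 pool 1 and the M1-like interaction 4. Fitting the compared groups alone gave 0 for the mock effect in M2-like cells, 7 for the Myc pool and 1 for the M1-like interaction.

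With the replicate block, M2-like against M0 at 24 h gave 5. In the reprogramming experiment the numbers are shared labels only: same-numbered samples deviated together with a median r of 0.183 over 198 pairs (-0.249 to 0.627), of which 131 were over 0.1. Other pairs had a median of -0.0829, again tied to the first value because deviations in a group sum to 0. The block there gave 2 for the mock effect in M2-like cells, 4 for the negative pool against mock, 1 for the Stat6 pool and 4 for the M1-like interaction. It moved no other count past 1.5 times.

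Leaving out each replicate gave 1 to 4 for M2-like against M0 at 24 h, 2 to 4 for the same comparison untransfected, 0 to 1 for the mock effect in M2-like cells, 0 to 2 for the negative pool against mock, 0 to 3 for Pparg, 0 to 1 for Stat6 and 1 to 3 for the M1-like interaction. For single genes, the log2 minimum ended 59 calls and left 161 values on their side of the threshold. Of the 2790 values under the other alternatives, 2659 kept their side, 67 lost a call, 64 gained one and none that was called changed sign. Depth limits Nqo1 most, with 10 counts in its lowest sample.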
